A study of Homo sapiens with 10 samples.

Results

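The integrated stress response and the unfolded protein response were followed in 12Z cells through 38 genes, looked up by symbol among the 62750 gene IDs of the deposited count table. They form an amino-acid arm of 21 genes around the transcription factor ATF4 and an endoplasmic reticulum (ER) arm of 17 genes for sensing, folding and disposing of proteins in that compartment. All 38 genes had a row and passed the filter on low counts, which left 15740 genes tested.

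12Z is an immortalised human line from the epithelium of a peritoneal endometriosis lesion, so each group is a treatment of the same line. Cells grown in medium with 10% serum were starved overnight in 2% charcoal-stripped serum and pre-treated for 30 minutes before 6 hours with or without the cytokine IL1β. The 5 groups of 2 libraries were 1 µM CDD-3013 with IL1β, 1 µM CDD-2728 with IL1β, 10 µM CDD-2728 with IL1β, IL1β at 10 ng/ml after the solvent DMSO, and DMSO vehicle with no IL1β. CDD-3013 and CDD-2728 are labelled as inhibitors of the stress kinase JNK, and each was given with IL1β in every library that received it. The labels do not say that libraries of a group came from separate cultures, so p-values measure the spread between these libraries, which may be technical.

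The 10 libraries held 16312600 to 19479416 counted reads, and log2 CPM (reads of a gene scaled to a library of 1000000 reads) of replicates had Pearson correlations of 0.9901 to 0.9925 across genes. The keratins KRT8, KRT18 and KRT19 averaged 6772, 2049 and 1124 CPM, whereas the epithelial markers EPCAM, ESRP1, CLDN3 and CLDN4 averaged under 1 CPM. The stromal collagen COL1A1 averaged 2800 CPM and the mesothelial marker LRRN4 464.5 CPM, and 5 of 7 immune markers were under 1 CPM, with CD3E at 0 counts. Over the group means the summed markers ranged from 8443 to 12880 CPM for 10 epithelial, 3336 to 4415 CPM for 8 stromal, 642.2 to 950.8 CPM for 5 mesothelial, 16.87 to 50.01 CPM for 4 endothelial and 17.34 to 25.95 CPM for 7 immune genes. KRT8 was highest with CDD-3013, at 9010 CPM against 6100 CPM with IL1β. With 10 µM CDD-2728, the group in which the amino-acid arm was highest, COL1A1 averaged 2203 CPM against 3229 CPM with IL1β, and the endothelial marker KDR 46.16 CPM against 13.69 CPM with IL1β and 34.38 CPM in vehicle, while the endothelial markers PECAM1 and VWF averaged under 1 CPM. The stromal markers did not move together in that group. VIM was also lower than with IL1β (502.8 against 650.9 CPM), and THY1 was level (165.6 against 166.7 CPM). DCN (327 against 266.3 CPM), PDGFRB (72.3 against 52.29), HAND2 (35.93 against 24.73), PDGFRA (6.348 against 4.387) and COL1A2 (22.18 against 20.48) were higher. The part of these markers in the results was not tested. JUN, a JNK-responsive gene, averaged 316 CPM with IL1β, 167 CPM with 1 µM and 81.6 CPM with 10 µM CDD-2728, 128 CPM with CDD-3013 and 139 CPM in vehicle. CXCL8, a cytokine-induced chemokine, averaged 960 CPM with IL1β against 1.93 CPM in vehicle.

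The integrated stress response starts when a kinase phosphorylates the translation factor eIF2α. Bulk translation then falls while ATF4 is translated more, and ATF4 switches on amino-acid transporters, enzymes of serine, one-carbon and cysteine metabolism, and feedback effectors. The unfolded protein response starts at 3 ER membrane sensors, of which PERK (gene EIF2AK3) feeds the same eIF2α step, IRE1α (gene ERN1) splices the XBP1 mRNA, and ATF6 is cleaved to a transcription factor. ATF6 and spliced XBP1 raise chaperones and the machinery of ER-associated degradation. Counts per gene read neither ATF4 translation, XBP1 splicing nor ATF6 cleavage, and in bulk RNA fewer cells with a transcript and less of it per cell cannot be told apart.

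Promoter sequences were examined for elements that these pathways are known to use. RefSeq windows of 300 bases on GRCh38.p14, from 250 before to 50 after a gene's start, were matched for 34 of the 38 genes, 17 in each arm, and NUPR1, SHMT2, ALDH1L2 and SLC7A11 had no window. Both strands were searched, and motifs were scored separately, so that matches may overlap. The ER stress element, CCAAT and CCACG separated by 9 bases, the classical ATF6 element, was in the window of 6 ER genes and of 0 amino-acid genes, and 0.092% of all 27305 genes with a window held it. Its second form, ATTGG and CCACG separated by 1 base, was in 2 ER genes, 0 amino-acid genes and 0.07% of all genes. The C/EBP-ATF response element TGATGNAA, which ATF4 can bind, was in 5 amino-acid genes, 1 ER gene and 4.457% of all genes. The pattern TGANTCA, the AP-1 motif of JUN with its middle base left free, was in 3 amino-acid genes, 1 ER gene and 9.368% of all genes. The amino-acid matches read TGACTCA and the ER match, in HSPA5, TGAATCA, and the share of all genes counts every middle base. The XBP1-type element TGACGTGG was in neither arm and in 0.927% of all genes. These elements were in part described on such genes, and a match is a string of letters, not a measured binding site.

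The ER stress and C/EBP-ATF matches are printed to show which genes of each arm carry them, with the fixed letters of the motif in capitals and each in the direction of the motif; the 8-letter sites carry up to 6 bases on either side.
HSPA5, ER stress element, chr9:125241391-125241409, minus strand: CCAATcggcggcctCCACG
XBP1, ER stress element, chr22:28800603-28800621, minus strand: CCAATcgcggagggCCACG
HSP90B1, upstream ER stress element, chr12:103930216-103930234, plus strand: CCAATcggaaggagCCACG
HSP90B1, downstream ER stress element, chr12:103930321-103930339, minus strand: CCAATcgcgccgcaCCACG
CALR, ER stress element, chr19:12938384-12938402, minus strand: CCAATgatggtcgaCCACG
CANX, ER stress element, chr5:179698778-179698796, plus strand: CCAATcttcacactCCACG
CRELD2, ER stress element, chr22:49918554-49918572, minus strand: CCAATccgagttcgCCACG
HERPUD1, second form, chr16:56932025-56932035, plus strand: ATTGGgCCACG
SDF2L1, second form, chr22:21642114-21642124, minus strand: ATTGGtCCACG
CHAC1, C/EBP-ATF element, chr15:40953262-40953269, minus strand: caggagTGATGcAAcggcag
ASNS, C/EBP-ATF element, chr7:97872469-97872476, minus strand: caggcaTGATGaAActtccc
SLC7A1, C/EBP-ATF element, chr13:29595674-29595681, minus strand: cactgcTGATGaAAcctggc
SLC3A2, C/EBP-ATF element, chr11:62881736-62881743, minus strand: ggagcTGATGtAAggagtc
SLC1A5, C/EBP-ATF element, chr19:46784904-46784911, minus strand: agtggcTGATGcAAgctgtc
HERPUD1, C/EBP-ATF element, chr16:56931966-56931973, minus strand: acgggcTGATGcAAcccgcc

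The whole window is given for an ER gene, an amino-acid gene and HERPUD1, the gene of the set with an element of each kind, with the ER stress and C/EBP-ATF matches in capitals and each window read on its gene's strand.
HSPA5 promoter, chr9:125241294-125241593, minus strand: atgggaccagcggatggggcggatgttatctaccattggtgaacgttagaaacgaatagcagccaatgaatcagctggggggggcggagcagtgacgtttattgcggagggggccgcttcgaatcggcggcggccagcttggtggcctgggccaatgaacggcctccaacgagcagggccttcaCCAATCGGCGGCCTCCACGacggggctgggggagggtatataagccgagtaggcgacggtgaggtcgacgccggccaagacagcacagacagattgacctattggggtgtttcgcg
CHAC1 promoter, chr15:40953221-40953520, plus strand: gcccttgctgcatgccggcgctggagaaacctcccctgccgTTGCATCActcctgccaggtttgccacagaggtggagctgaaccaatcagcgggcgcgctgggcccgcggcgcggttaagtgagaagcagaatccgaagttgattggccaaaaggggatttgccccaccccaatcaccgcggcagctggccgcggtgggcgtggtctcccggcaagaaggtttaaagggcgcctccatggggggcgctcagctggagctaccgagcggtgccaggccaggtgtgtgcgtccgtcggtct
HERPUD1 promoter, chr16:56931892-56932191, plus strand: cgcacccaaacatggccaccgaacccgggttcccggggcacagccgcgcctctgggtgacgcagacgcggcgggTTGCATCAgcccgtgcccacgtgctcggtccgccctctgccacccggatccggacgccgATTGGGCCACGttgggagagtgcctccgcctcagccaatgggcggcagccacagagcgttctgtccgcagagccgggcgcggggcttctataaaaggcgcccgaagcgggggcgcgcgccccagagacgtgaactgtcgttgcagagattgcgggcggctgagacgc

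Next, levels were compared between genes as CPM per kilobase of annotated exon, averaged over the 10 libraries. On this scale the ER arm was the more abundant, with a median of 36.7 against 19.3 CPM per kb in the amino-acid arm. Lengths are unions of all annotated exons and can exceed the transcript a cell makes, so levels between genes depend on the annotation. CALR and HSPA5, chaperones of the ER lumen, stood at 578 and 435 CPM per kb, followed by HSP90B1 at 203 and CANX at 171 CPM per kb. ATF4 was the most abundant amino-acid gene at 129 CPM per kb, ahead of SLC7A5 at 75.9 CPM per kb. The lowest rows were NUPR1, ALDH1L2 and ASNS, with 567, 378 and 180 reads in all 10 libraries together.

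Reads of some rows can be shared with other genes, since neither the strand setting of the counting nor its handling of reads in overlapping genes is stated in the sources at hand. For ASNS, 44.6% of exon bases in GENCODE 29 also lie in exons of another gene on the same strand, so its row is not read as the level of asparagine synthetase. The row still enters the counts, medians and means of the amino-acid arm and of its enzymes. For DDIT3 8.03% of exon bases are shared on the same strand and 31.6% on the opposite one, where the neighbours are MARS1 and MBD6. On the opposite strand the shares are 41.2% for DDIT4, 33.2% for MTHFD2, 23.8% for SLC1A5, 21.2% for ATF5 and 15.1% for EIF2AK3, and these genes are uncertain to that extent.

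IL1β alone raised the ER arm almost throughout and split the amino-acid arm. Of 17 ER genes 16 rose and 0 fell with IL1β against vehicle, and ATF6 did not pass the test; of 21 amino-acid genes 10 rose and 5 fell. Over all genes tested 32.6% were called, 17.6% higher and 15.0% lower. The median log2 fold change was 0.60 over the ER arm and 0.16 over the amino-acid arm, beside -0.01 over all genes. Calls throughout are from edgeR's quasi-likelihood test with a Benjamini-Hochberg adjusted p under 0.05 over all genes tested, and log2 fold changes are given ± SE. Remarks that libraries of different groups lay apart or did not overlap only describe the values. The share of all genes that lay apart was not computed, so these remarks add no support to a call.

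**Figure D1:**
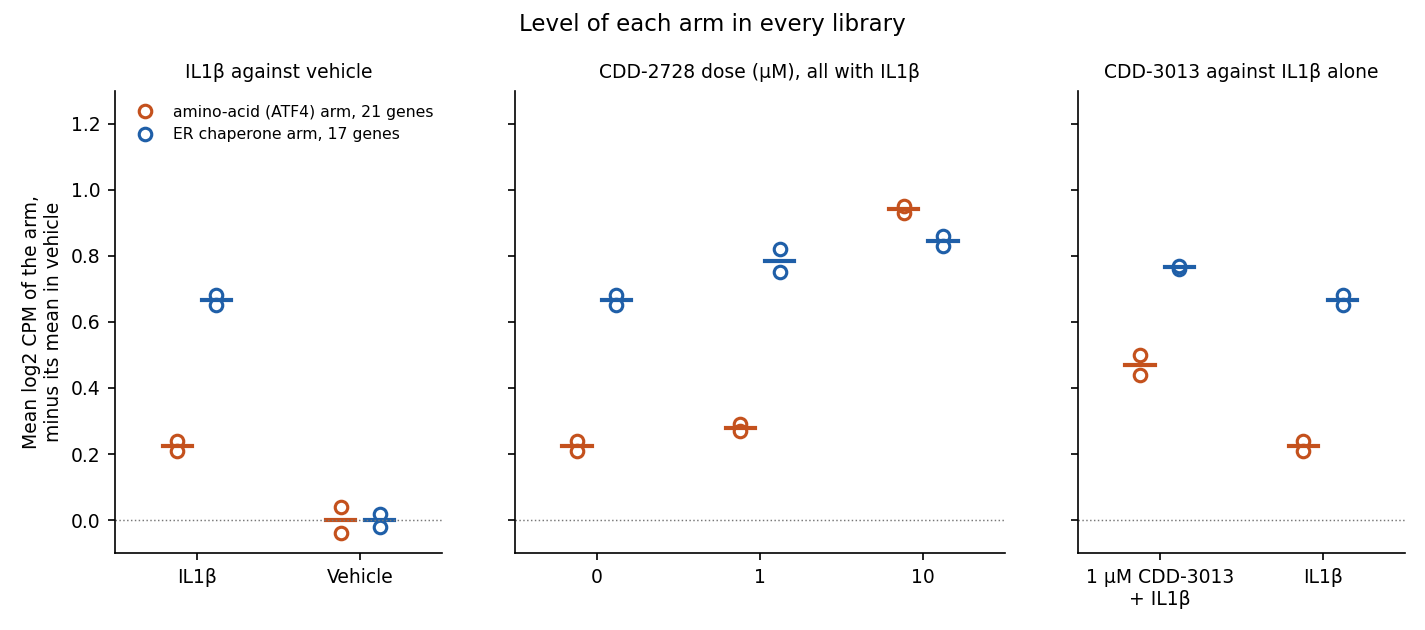
Mean log2 CPM over the genes of each arm in every library, minus that arm's vehicle mean; circles are libraries, bars are group means, and the middle panel runs over the dose of CDD-2728. With IL1β the ER arm stood at 0.68 and 0.65 and the amino-acid arm at 0.24 and 0.21, and with 10 µM CDD-2728 the amino-acid arm reached 0.93 and 0.95.

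Among the ER sensors and transducers, ERN1 had 76.4 and 78.3 CPM in IL1β libraries against 30.0 and 30.8 CPM in vehicle, and rose by 1.35 ± 0.09 (adjusted p = 1.98e-11). EIF2AK3, the PERK kinase, had 37.2 and 35.2 CPM with IL1β and 24.1 and 22.4 CPM in vehicle, a log2 fold change of 0.64 ± 0.11 (adjusted p = 1.15e-05). XBP1 (chr22:28794555-28800597, minus strand) had 212 and 213 CPM with IL1β and 107 and 108 CPM in vehicle, 0.98 ± 0.08 (adjusted p = 1.7e-10). For these 3 genes both IL1β libraries lay above both vehicle libraries. ATF6 did not pass the test, at 51.8 and 55.5 CPM with IL1β and 53.0 and 47.4 CPM in vehicle, with overlapping groups (0.09 ± 0.09, adjusted p = 0.42).

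All 10 chaperones and folding factors rose with IL1β. HSPA5, which encodes BiP, the main ER chaperone (chr9:125234853-125241330, minus strand), had 1729 and 1708 CPM with IL1β and 939 and 934 CPM in vehicle, a log2 fold change of 0.88 ± 0.08 (adjusted p = 2.1e-10). DNAJB9, a BiP co-chaperone, had 55.4 and 56.1 CPM with IL1β and 22.6 and 21.5 CPM in vehicle, 1.34 ± 0.10 (adjusted p = 1.71e-11). SDF2L1, a partner of BiP, had 55.8 and 51.1 CPM with IL1β and 28.1 and 28.1 CPM in vehicle, 0.93 ± 0.10 (adjusted p = 1.41e-08). No library of the IL1β group overlapped vehicle in these genes. DNAJC3, a co-chaperone that also inhibits eIF2α kinases, had 190.3 and 187 CPM with IL1β and 112 and 101 CPM in vehicle, 0.83 ± 0.08 (adjusted p = 6.57e-10). MANF, a secreted ER-resident protein, had 80.3 and 80.7 CPM with IL1β and 51.7 and 54.5 CPM in vehicle, 0.60 ± 0.09 (adjusted p = 2.09e-06). The rises were smaller for HSP90B1, CRELD2, PDIA4, CALR and CANX, with log2 fold changes from 0.26 for CANX to 0.44 for HSP90B1.

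The 3 genes of ER-associated degradation rose as well. HERPUD1 (chr16:56932048-56944863, plus strand), a scaffold of the degradation complex, had 185 and 192 CPM with IL1β and 82.1 and 83.4 CPM in vehicle, a log2 fold change of 1.19 ± 0.08 (adjusted p = 2.57e-12). EDEM1, a lectin that sorts glycoproteins for disposal, and SEL1L, an adaptor of the ubiquitin ligase, rose by 0.43 and 0.42. Of the 16 ER calls, 15 held without any 1 library; that of CANX was lost without vehicle replicate 2 (adjusted p = 0.0531) or IL1β replicate 1 (adjusted p = 0.0633).

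Among the amino-acid regulators, ATF4 (chr22:39519695-39522685, plus strand) had 297 and 296 CPM with IL1β and 217 and 227 CPM in vehicle, a log2 fold change of 0.42 ± 0.08 (adjusted p = 5.26e-05). ATF5, a related transcription factor, had 54.5 and 51.4 CPM with IL1β and 38.4 and 39.3 CPM in vehicle, 0.45 ± 0.10 (adjusted p = 9.87e-05). DDIT3, which encodes the pro-apoptotic factor CHOP, had 12.3 and 13.9 CPM with IL1β and 9.42 and 9.87 CPM in vehicle, 0.44 ± 0.14 (adjusted p = 0.0141). In each of the 3 genes both IL1β libraries lay above both vehicle libraries. NUPR1, a small stress-induced nuclear protein, did not pass the test, at 2.57 and 2.32 CPM with IL1β and 3.32 and 4.09 CPM in vehicle (adjusted p = 0.0619).

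The stress effectors held the largest rises of the set. DDIT4 (chr10:72273920-72276036, plus strand), which encodes the mTORC1 inhibitor REDD1, had 73.4 and 78.8 CPM with IL1β and 12.8 and 17.7 CPM in vehicle, a log2 fold change of 2.32 ± 0.15 (adjusted p = 5.04e-08). CHAC1 (chr15:40952962-40956519, plus strand), a glutathione-degrading enzyme, had 14.8 and 14.7 CPM with IL1β and 5.31 and 5.52 CPM in vehicle, 1.44 ± 0.17 (adjusted p = 8.63e-07). PPP1R15A, the phosphatase subunit GADD34 that reverses eIF2α phosphorylation, had 50.2 and 60.3 CPM with IL1β and 42.6 and 39.1 CPM in vehicle, 0.43 ± 0.09 (adjusted p = 0.000724). These groups did not overlap. SESN2, a leucine sensor that restrains mTORC1, had 41.0 and 42.0 CPM with IL1β and 34.9 and 31.5 CPM in vehicle, 0.32 ± 0.10 (adjusted p = 0.0087). TRIB3, a pseudokinase induced by ATF4 and CHOP, went the other way, with 60.9 and 55.8 CPM with IL1β and 68.5 and 69.4 CPM in vehicle, -0.24 ± 0.09 (adjusted p = 0.0393).

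Of the 7 enzymes 1 rose with IL1β, 3 fell and 3 did not pass the test. PSAT1, of serine synthesis, had 47.9 and 44.8 CPM with IL1β and 66.8 and 69.8 CPM in vehicle, a log2 fold change of -0.56 ± 0.09 (adjusted p = 1.01e-05). PHGDH, the entry enzyme of serine synthesis, had 190.1 and 193 CPM with IL1β and 251 and 267 CPM in vehicle, -0.43 ± 0.08 (adjusted p = 3.09e-05). CTH, which makes cysteine from cystathionine, had 19.1 and 17.8 CPM with IL1β and 29.3 and 30.8 CPM in vehicle, -0.70 ± 0.11 (adjusted p = 2.23e-05). In these 3 genes both IL1β libraries lay below both vehicle libraries. MTHFD2, of the mitochondrial folate pathway, rose, with 78.6 and 78.9 CPM with IL1β and 51.4 and 54.7 CPM in vehicle, 0.57 ± 0.09 (adjusted p = 1.07e-05). ALDH1L2, of the same pathway, had 2.01 and 1.32 CPM with IL1β and 2.72 and 2.51 CPM in vehicle, and the ASNS row 0.895 and 1.01 CPM with IL1β and 0.739 and 1.13 CPM in vehicle; neither passed the test, nor did SHMT2, the mitochondrial serine hydroxymethyltransferase (0.12, adjusted p = 0.219).

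Of the 5 transporters 2 rose with IL1β, 1 fell and 2 did not pass the test. SLC7A1, a carrier of arginine and lysine, had 243 and 227 CPM with IL1β and 114 and 115 CPM in vehicle, a log2 fold change of 1.04 ± 0.08 (adjusted p = 8.04e-11). SLC7A5, the light chain of the leucine carrier, had 321 and 326 CPM with IL1β and 279 and 268 CPM in vehicle, 0.24 ± 0.08 (adjusted p = 0.0162). The glutamine carrier SLC1A5 fell by a small margin (-0.18, adjusted p = 0.0495). SLC3A2, the heavy chain shared by SLC7A5 and SLC7A11, did not pass the test at 209 and 209 CPM with IL1β and 183 and 191 CPM in vehicle (adjusted p = 0.0748), nor did the cystine carrier SLC7A11 at 36.7 and 37.5 CPM with IL1β and 35.9 and 32.8 CPM in vehicle (adjusted p = 0.443).

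Of the 15 amino-acid calls 9 held without any 1 library, and those of DDIT3, TRIB3, SESN2, PPP1R15A, SLC7A5 and SLC1A5 were all lost without IL1β replicate 2 (adjusted p 0.154 for DDIT3, 0.294 for TRIB3, 0.0691 for SESN2, 0.0502 for PPP1R15A, 0.0962 for SLC7A5 and 0.29 for SLC1A5), all but PPP1R15A also without another library. Scaling by library totals in place of TMM factors moved the median of all genes by -0.174 in IL1β against vehicle and the share of called genes that were higher to 25.5%, against 54% with TMM. It gave 12 of 17 ER genes higher and 0 lower (median log2 fold change 0.43), and 7 higher and 6 lower of the 21 amino-acid genes (median -0.01). Over all 15740 genes it gave 1623 higher and 4730 lower.

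CDD-2728 was then followed from IL1β alone through 1 µM to 10 µM. At 1 µM few genes of either arm moved, and at 10 µM the amino-acid arm rose with most of its members, enzymes included, while the ER arm gained little beyond its level with IL1β alone. The mean of the amino-acid arm above vehicle was 0.24 and 0.21 with IL1β, 0.29 and 0.27 with 1 µM and 0.93 and 0.95 with 10 µM CDD-2728, in log2 CPM. That of the ER arm was 0.68 and 0.65, then 0.82 and 0.75, then 0.86 and 0.83. For the 7 enzymes the means were -0.18 and -0.28 with IL1β, -0.23 and -0.16 with 1 µM and 0.48 and 0.41 with 10 µM, so that of these 3 groups the 10 µM libraries alone lay above vehicle.

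At 1 µM CDD-2728 against IL1β, 2 of 21 amino-acid genes rose, CHAC1 and CTH, and 2 of 17 ER genes, DNAJB9 and SDF2L1; 0 fell in either arm, and 4.59% of all genes were called, 2.03% higher and 2.57% lower. CTH had 30.3 and 31.4 CPM with 1 µM and 19.1 and 17.8 CPM with IL1β, a log2 fold change of 0.74 ± 0.11 (adjusted p = 0.000163). CHAC1 had 23.6 and 19.5 CPM with 1 µM and 14.8 and 14.7 CPM with IL1β, 0.55 ± 0.14 (adjusted p = 0.031). DNAJB9 had 77.4 and 66.4 CPM with 1 µM and 55.4 and 56.1 CPM with IL1β, 0.37 ± 0.09 (adjusted p = 0.00836), and SDF2L1 rose by 0.30 ± 0.09 (adjusted p = 0.0411). The 4 genes lay higher in both 1 µM libraries than in both IL1β libraries. The calls of CHAC1, DNAJB9 and SDF2L1 were each lost without IL1β replicate 1, IL1β replicate 2 or 1 µM replicate 1, with adjusted p of 0.172 to 0.331 for CHAC1, 0.0749 to 0.225 for DNAJB9 and 0.117 to 0.518 for SDF2L1. With all libraries the median log2 fold change was 0.02 in the amino-acid arm and 0.13 in the ER arm. Without 1 µM replicate 2 these medians were 0.03 and 0.20.

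At 10 µM CDD-2728 against IL1β, 17 of 21 amino-acid genes rose and 0 fell, with a median log2 fold change of 0.71; 7 of 17 ER genes rose and 1 fell, with a median of 0.10. Over all genes 31.5% were called, 15.6% higher and 15.9% lower, with a median of 0.006. Against 1 µM, 10 µM raised 20 amino-acid genes and lowered 0 (median 0.67), and raised 3 ER genes and lowered 2 (median 0.00), where 27.1% of all genes were called, 13.3% higher and 13.8% lower. The ASNS row is among those 20. The comparisons share libraries, so they are given side by side and not as independent results.

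**Figure D2:**
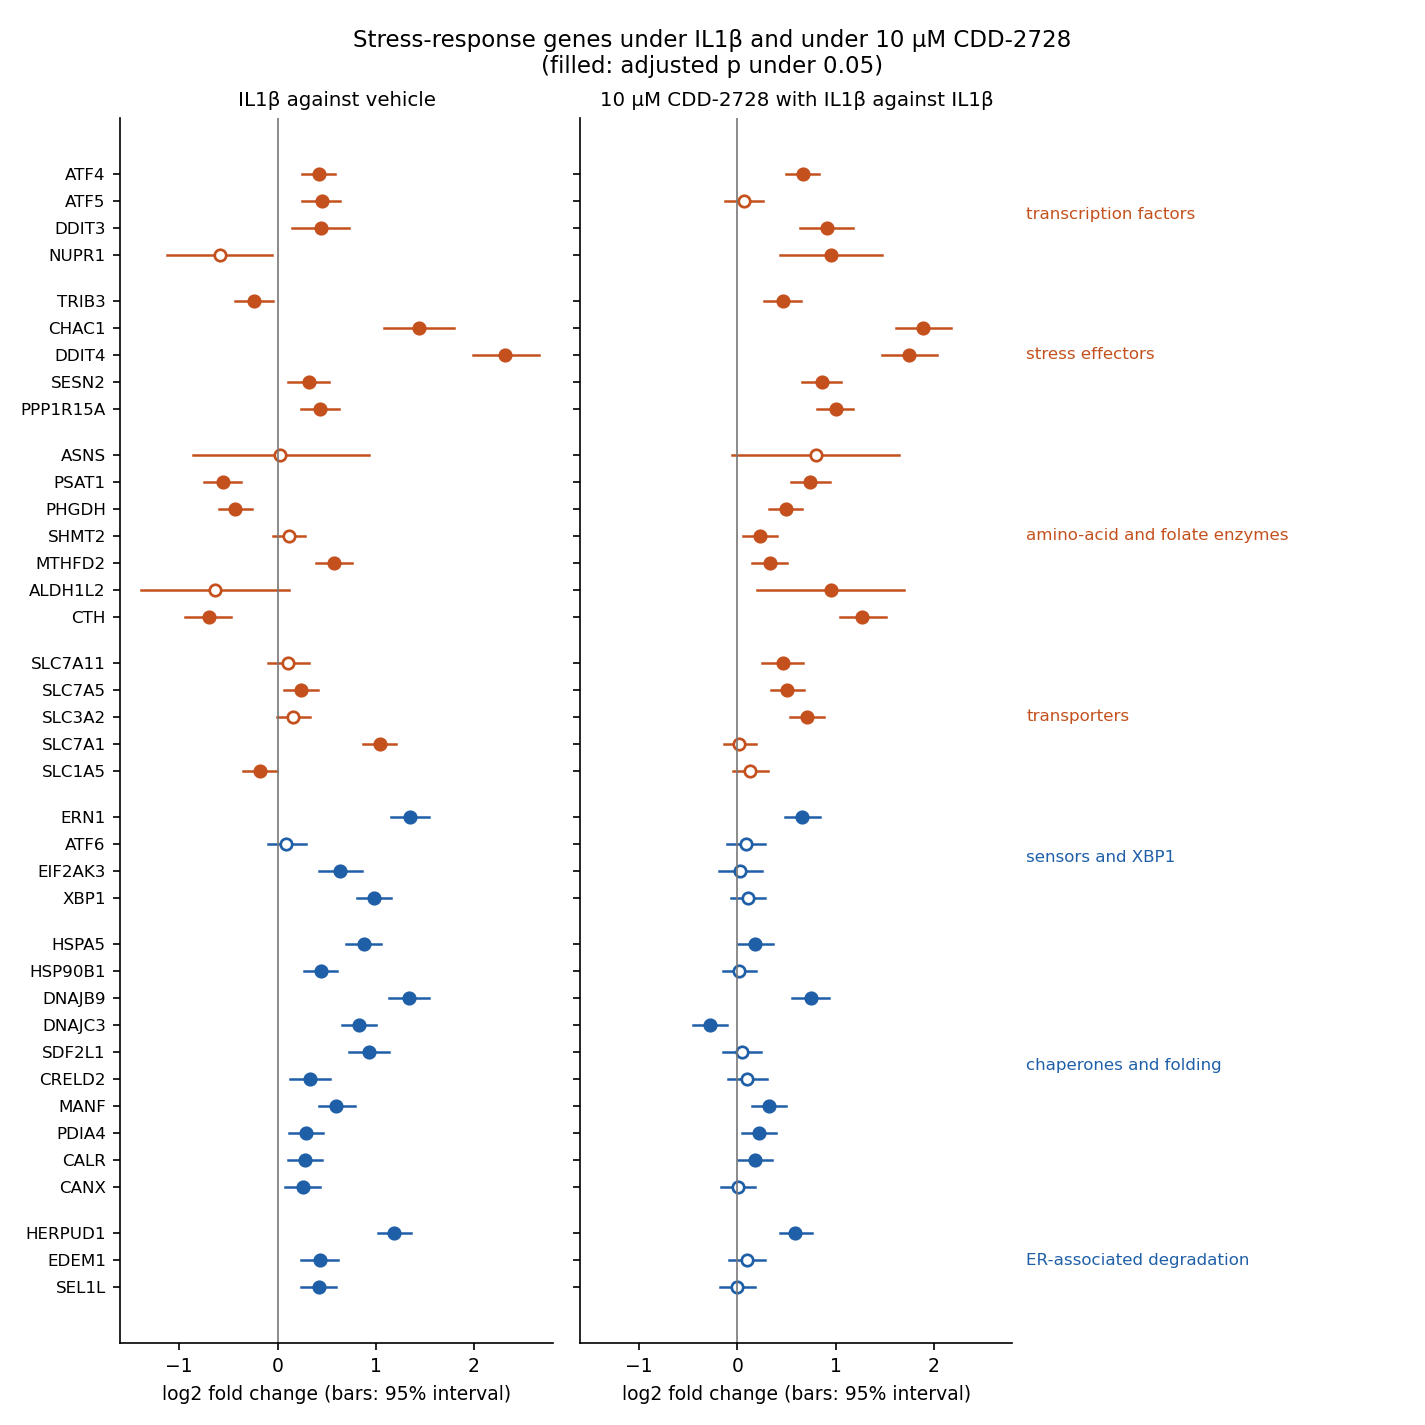
Log2 fold changes of all 38 genes with 95% intervals, by role, for IL1β against vehicle and for 10 µM CDD-2728 with IL1β against IL1β; filled circles passed the test at an adjusted p of 0.05. The ER genes lay to the right under IL1β, from 0.09 to 1.35, and the amino-acid genes under 10 µM CDD-2728, from 0.02 to 1.89.

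The regulators other than ATF5 rose at 10 µM. ATF4 had 297 and 296 CPM with IL1β, 299.7 and 261 CPM with 1 µM and 474 and 467 CPM with 10 µM CDD-2728, a log2 fold change of 0.67 ± 0.08 for 10 µM against IL1β (adjusted p = 1.34e-07). DDIT3 had 12.3 and 13.9 CPM with IL1β, 15.8 and 15.1 CPM with 1 µM and 24.5 and 24.7 CPM with 10 µM, 0.91 ± 0.13 (adjusted p = 5.69e-06). NUPR1 had 2.57 and 2.32 CPM with IL1β, 2.20 and 1.73 CPM with 1 µM and 4.75 and 4.72 CPM with 10 µM, 0.95 ± 0.25 (adjusted p = 0.00338). In all 3 both 10 µM libraries exceeded every IL1β and 1 µM library. ATF5 had 54.5 and 51.4 CPM with IL1β, 61.3 and 59.7 CPM with 1 µM and 54.6 and 56.6 CPM with 10 µM, and did not pass the test (0.07 ± 0.09, adjusted p = 0.54).

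All 5 effectors rose at 10 µM. CHAC1 had 14.8 and 14.7 CPM with IL1β, 23.6 and 19.5 CPM with 1 µM and 52.6 and 56.7 CPM with 10 µM, a log2 fold change of 1.89 ± 0.14 for 10 µM against IL1β (adjusted p = 1.47e-09). DDIT4 had 73.4 and 78.8 CPM with IL1β, 106 and 87.5 CPM with 1 µM and 239 and 273 CPM with 10 µM, 1.75 ± 0.13 (adjusted p = 4.21e-07). PPP1R15A had 50.2 and 60.3 CPM with IL1β, 61.4 and 61.4 CPM with 1 µM and 103 and 118 CPM with 10 µM, 1.00 ± 0.09 (adjusted p = 1.13e-08). CHAC1, DDIT4 and PPP1R15A had thus risen with IL1β and rose further. SESN2 had 41.0 and 42.0 CPM with IL1β, 48.2 and 42.8 CPM with 1 µM and 70.9 and 79.2 CPM with 10 µM, 0.86 ± 0.10 (adjusted p = 9.53e-08). TRIB3 had 60.9 and 55.8 CPM with IL1β, 51.9 and 47.8 CPM with 1 µM and 74.4 and 86.1 CPM with 10 µM, 0.46 ± 0.09 (adjusted p = 0.000337), and had been lower with IL1β than in vehicle.

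Of the enzymes 6 of 7 rose at 10 µM, among them the 3 that IL1β had lowered. PSAT1 had 47.9 and 44.8 CPM with IL1β, 43.9 and 44.6 CPM with 1 µM and 77.0 and 78.1 CPM with 10 µM, a log2 fold change of 0.74 ± 0.09 for 10 µM against IL1β (adjusted p = 3.32e-07). CTH had 19.1 and 17.8 CPM with IL1β, 30.3 and 31.4 CPM with 1 µM and 49.6 and 39.5 CPM with 10 µM, 1.27 ± 0.11 (adjusted p = 5.35e-09). PHGDH had 190.1 and 193 CPM with IL1β, 237 and 210.4 CPM with 1 µM and 260.4 and 278 CPM with 10 µM, 0.49 ± 0.08 (adjusted p = 9.91e-06). In all 3 both 10 µM libraries lay above both IL1β libraries, and for PSAT1 and CTH also above both vehicle libraries (66.8 and 69.8 and 29.3 and 30.8 CPM). MTHFD2 had 78.6 and 78.9 CPM with IL1β, 78.4 and 70.2 CPM with 1 µM and 96.6 and 101 CPM with 10 µM, 0.33 ± 0.09 (adjusted p = 0.00364). SHMT2 rose by 0.23 ± 0.08 (adjusted p = 0.015). ALDH1L2 had 2.01 and 1.32 CPM with IL1β, 0.902 and 2.41 CPM with 1 µM and 2.99 and 3.53 CPM with 10 µM, 0.95 ± 0.36 (adjusted p = 0.0462). The ASNS row held 0.895 and 1.01 CPM with IL1β, 0.789 and 0.556 CPM with 1 µM and 1.98 and 1.32 CPM with 10 µM and passed the test for 10 against 1 µM (adjusted p = 0.0289) but not against IL1β (adjusted p = 0.14).

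Of the transporters 3 of 5 rose at 10 µM against IL1β. SLC3A2 had 209 and 209 CPM with IL1β, 248 and 236 CPM with 1 µM and 333 and 353 CPM with 10 µM, a log2 fold change of 0.71 ± 0.08 (adjusted p = 3.94e-08). SLC7A5 had 321 and 326 CPM with IL1β, 324 and 394 CPM with 1 µM and 474 and 446 CPM with 10 µM, 0.51 ± 0.08 (adjusted p = 2e-05). SLC7A11 had 36.7 and 37.5 CPM with IL1β, 29.7 and 36.6 CPM with 1 µM and 51.1 and 50.6 CPM with 10 µM, 0.46 ± 0.10 (adjusted p = 0.00113). These are the heavy chain and both of its light chains in the set, and both 10 µM libraries of each lay above both libraries of IL1β alone. SLC7A1, which had risen with IL1β, had 243 and 227 CPM with IL1β, 184 and 217 CPM with 1 µM and 241 and 237 CPM with 10 µM and did not pass the test against IL1β (adjusted p = 0.848), nor did SLC1A5 (0.13, adjusted p = 0.158).

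In the ER arm the rises at 10 µM were largest in ERN1, DNAJB9 and HERPUD1. ERN1 had 76.4 and 78.3 CPM with IL1β, 75.6 and 93.5 CPM with 1 µM and 123 and 121 CPM with 10 µM, a log2 fold change of 0.66 ± 0.09 for 10 µM against IL1β (adjusted p = 2.06e-06). DNAJB9 had 55.4 and 56.1 CPM with IL1β, 77.4 and 66.4 CPM with 1 µM and 93.0 and 94.1 CPM with 10 µM, 0.75 ± 0.09 (adjusted p = 2.11e-07). HERPUD1 had 185 and 192 CPM with IL1β, 225 and 202 CPM with 1 µM and 280.4 and 289 CPM with 10 µM, 0.59 ± 0.08 (adjusted p = 5.24e-07). These 3 genes had also shown the largest ER rises with IL1β. MANF had 80.3 and 80.7 CPM with IL1β, 94.8 and 85.7 CPM with 1 µM and 100.2 and 101 CPM with 10 µM, 0.32 ± 0.09 (adjusted p = 0.00236). HSPA5, PDIA4 and CALR rose by 0.18, 0.22 and 0.18, and HSPA5 had 1729 and 1708 CPM with IL1β, 1957 and 1858 CPM with 1 µM and 1931 and 1974 CPM with 10 µM (adjusted p = 0.0347).

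DNAJC3 fell, with 190.3 and 187 CPM with IL1β, 186 and 188 CPM with 1 µM and 156 and 155 CPM with 10 µM CDD-2728, a log2 fold change of -0.28 ± 0.08 for 10 µM against IL1β (adjusted p = 0.00229). XBP1 had 212 and 213 CPM with IL1β, 245 and 219 CPM with 1 µM and 222 and 236 CPM with 10 µM and did not pass the test against IL1β (0.11 ± 0.08, 95% interval -0.06 to 0.28, adjusted p = 0.267). SDF2L1 was highest at the middle dose, with 55.8 and 51.1 CPM with IL1β, 71.0 and 60.8 CPM with 1 µM and 54.3 and 56.3 CPM with 10 µM, and fell at 10 against 1 µM (-0.26 ± 0.09, adjusted p = 0.0277). The other sensors did not pass the test: ATF6 had 51.8 and 55.5 CPM with IL1β, 57.8 and 57.2 CPM with 1 µM and 57.7 and 56.1 CPM with 10 µM (adjusted p = 0.454 for 10 µM against IL1β), and EIF2AK3 37.2 and 35.2 CPM with IL1β, 31.1 and 31.2 CPM with 1 µM and 39.0 and 34.8 CPM with 10 µM (adjusted p = 0.854). HSP90B1, CRELD2, CANX, EDEM1 and SEL1L also did not pass, with log2 fold changes of 0.00 to 0.10.

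**Figure D3:**
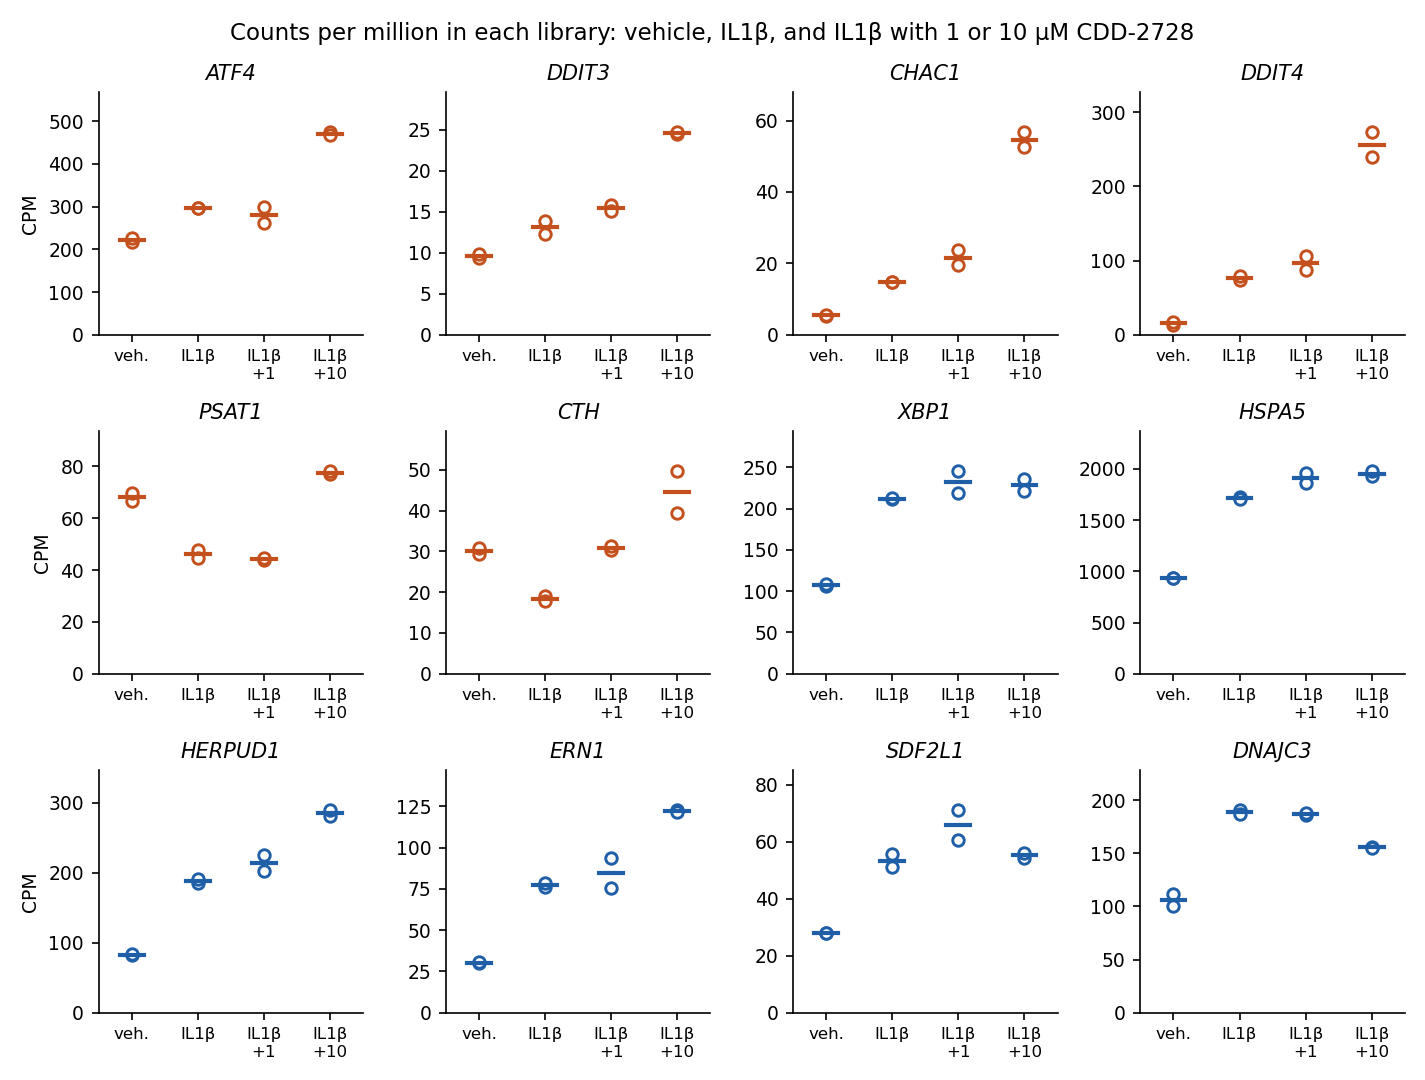
CPM of 12 genes in every library of vehicle, IL1β, and IL1β with 1 or 10 µM CDD-2728, with circles for libraries and bars for group means on linear axes from 0 (orange, amino-acid arm; blue, ER arm). PSAT1 and CTH were lower with IL1β than in vehicle and highest at 10 µM, while XBP1 and HSPA5 lay above both vehicle libraries in all 3 groups with IL1β.

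Without any 1 library, 15 of the 17 amino-acid calls at 10 µM against IL1β held. That of SHMT2 was lost without IL1β replicate 2 (adjusted p = 0.188) or 10 µM replicate 1 (adjusted p = 0.0873), and that of ALDH1L2 without any of the 4 libraries (adjusted p 0.0575 to 0.273). Of the 8 ER calls 5 held; HSPA5 and CALR were lost without any of the 4 libraries (adjusted p 0.0705 to 0.18 and 0.117 to 0.196), and PDIA4 without IL1β replicate 2 (adjusted p = 0.171) or 10 µM replicate 1 (adjusted p = 0.0745). For 10 against 1 µM, 14 of 20 amino-acid and 4 of 5 ER calls held; ASNS, PHGDH, SHMT2, ALDH1L2, SLC7A1, SLC1A5 and SDF2L1 each lost the call without at least 1 of the 1 µM and without at least 1 of the 10 µM libraries, with adjusted p of 0.0505 to 0.453. With library totals the share of called genes that were higher was 61.7% against 49.5% with TMM for 10 µM against IL1β, with 18 amino-acid genes higher and 0 lower and 7 ER genes higher and 1 lower. For 10 against 1 µM it was 67% against 49.1%, with 20 amino-acid genes higher and 0 lower and 5 ER genes higher and 1 lower. Over all 15740 genes library totals gave 3082 higher and 1911 lower for 10 µM against IL1β. For 10 against 1 µM they gave 2826 higher and 1389 lower.

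CDD-3013 at 1 µM was next set against IL1β alone. Both arms held genes that rose and genes that fell: 13 of 21 amino-acid genes rose and 2 fell (median log2 fold change 0.26), and 9 of 17 ER genes rose and 4 fell (median 0.21). Over all genes 36.4% were called, 19.0% higher and 17.3% lower, with a median of -0.007. Fold changes in this comparison moved with GC content over all genes, with a median of 0.19 in the 25% of genes highest in GC content and -0.20 in the 25% lowest, and the 22 members that rose had a median GC content of 55.6% against 42.15% for the 6 that fell. Values corrected for transcript length and GC content are therefore given beside the deposited counts. With them 8 amino-acid genes were higher and 2 lower, and 7 ER genes higher and 2 lower. Over all 15740 genes the corrected fit called 2298 higher and 1800 lower.

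Among the regulators and effectors, CHAC1 had 27.1 and 38.7 CPM with CDD-3013 and 14.8 and 14.7 CPM with IL1β, a log2 fold change of 1.16 ± 0.14 (adjusted p = 4.7e-06; corrected 0.80, adjusted p = 3.05e-05). DDIT4 had 110.2 and 137 CPM with CDD-3013 and 73.4 and 78.8 CPM with IL1β, 0.70 ± 0.13 (adjusted p = 0.00111; corrected 0.35, adjusted p = 0.0279). ATF5 had 78.1 and 75.7 CPM with CDD-3013 and 54.5 and 51.4 CPM with IL1β, 0.54 ± 0.09 (adjusted p = 1.55e-05; corrected 0.23, adjusted p = 0.0124). These 3 were higher in both CDD-3013 libraries and stayed called after the correction. DDIT3 had 17.9 and 22.4 CPM with CDD-3013 and 12.3 and 13.9 CPM with IL1β, 0.62 ± 0.13 (adjusted p = 0.000558; corrected 0.31, adjusted p = 0.0501). PPP1R15A had 70.5 and 70.6 CPM with CDD-3013 and 50.2 and 60.3 CPM with IL1β (corrected adjusted p = 0.387), and SESN2 50.3 and 49.3 CPM with CDD-3013 and 41.0 and 42.0 CPM with IL1β (corrected adjusted p = 0.254). ATF4 had 339 and 354 CPM with CDD-3013 and 297 and 296 CPM with IL1β, 0.23 ± 0.08 (adjusted p = 0.0141), and its sign turned with the correction (-0.07, adjusted p = 0.353). DDIT3, PPP1R15A, SESN2 and ATF4 thus lost the call. TRIB3 had 52.2 and 59.5 CPM with CDD-3013 and 60.9 and 55.8 CPM with IL1β and was called, as lower, only with the correction (-0.32, adjusted p = 0.00185), and NUPR1, at 2.73 and 3.23 CPM with CDD-3013 and 2.57 and 2.32 CPM with IL1β, did not pass the test (adjusted p = 0.429).

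Among the enzymes and transporters, PHGDH had 273 and 270.4 CPM with CDD-3013 and 190.1 and 193 CPM with IL1β, a log2 fold change of 0.50 ± 0.08 (adjusted p = 1.11e-05; corrected 0.41). CTH had 30.3 and 28.5 CPM with CDD-3013 and 19.1 and 17.8 CPM with IL1β, 0.67 ± 0.12 (adjusted p = 7.97e-05; corrected 0.55). SLC3A2 had 297 and 333 CPM with CDD-3013 and 209 and 209 CPM with IL1β, 0.59 ± 0.08 (adjusted p = 1.65e-06; corrected 0.32). The 3 genes rose under both treatments of the counts, as did SHMT2 (0.37; corrected 0.25) and SLC7A5, which had 386 and 380 CPM with CDD-3013 and 321 and 326 CPM with IL1β. SLC7A1 fell, with 175 and 165 CPM with CDD-3013 and 243 and 227 CPM with IL1β, -0.47 ± 0.08 (adjusted p = 4.35e-05; corrected -0.33, adjusted p = 6.46e-05). SLC7A11, with the lowest GC content of the set at 35.4%, had 24.4 and 28.1 CPM with CDD-3013 and 36.7 and 37.5 CPM with IL1β, -0.50 ± 0.11 (adjusted p = 0.000702), and lost the call with the correction (-0.02, adjusted p = 0.911), as did SLC1A5 (0.23; corrected 0.02, adjusted p = 0.837). PSAT1 had 46.3 and 53.3 CPM with CDD-3013 and 47.9 and 44.8 CPM with IL1β, and MTHFD2 64.1 and 75.7 CPM with CDD-3013 and 78.6 and 78.9 CPM with IL1β, and neither passed the test (adjusted p = 0.375 and 0.116). ALDH1L2 held 1.72 and 0.886 CPM with CDD-3013 and 2.01 and 1.32 CPM with IL1β, and the ASNS row 0.951 and 0.759 CPM with CDD-3013 and 0.895 and 1.01 CPM with IL1β, both not called.

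In the ER arm SDF2L1, with the highest GC content of the set at 65.5%, had 85.8 and 89.1 CPM with CDD-3013 and 55.8 and 51.1 CPM with IL1β, a log2 fold change of 0.71 ± 0.09 (adjusted p = 2.01e-06; corrected 0.34, adjusted p = 0.000558). XBP1 had 255 and 285 CPM with CDD-3013 and 212 and 213 CPM with IL1β, 0.35 ± 0.08 (adjusted p = 0.000584; corrected 0.26). HSPA5 had 1992 and 1985 CPM with CDD-3013 and 1729 and 1708 CPM with IL1β, 0.21 ± 0.08 (adjusted p = 0.0143; corrected 0.26). These 3 genes were higher under both treatments of the counts, as were CALR (0.44; corrected 0.14), DNAJB9 at 68.4 and 68.0 CPM with CDD-3013 and 55.4 and 56.1 CPM with IL1β, and HERPUD1 at 214 and 231 CPM with CDD-3013 and 185 and 192 CPM with IL1β. MANF had 105 and 119 CPM with CDD-3013 and 80.3 and 80.7 CPM with IL1β and lost the call with the correction (adjusted p = 0.0642), as did CRELD2 and PDIA4 (adjusted p = 0.0603 and 0.0825).

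EIF2AK3 fell, with 26.6 and 25.4 CPM with CDD-3013 and 37.2 and 35.2 CPM with IL1β, a log2 fold change of -0.48 ± 0.11 (adjusted p = 0.000467; corrected -0.36). DNAJC3 fell too, with 143 and 144 CPM with CDD-3013 and 190.3 and 187 CPM with IL1β, -0.40 ± 0.08 (adjusted p = 7.72e-05; corrected -0.16, adjusted p = 0.024). EDEM1 and SEL1L were lower in the counts (-0.31 and -0.23) and not called with the correction (-0.11 and 0.12), where SEL1L had turned sign. ERN1 had 73.2 and 70.3 CPM with CDD-3013 and 76.4 and 78.3 CPM with IL1β and did not pass the test (adjusted p = 0.352), nor did HSP90B1 or CANX. ATF6 had 53.2 and 51.9 CPM with CDD-3013 and 51.8 and 55.5 CPM with IL1β, with a log2 fold change of -0.03 in the counts and 0.28 with the correction (adjusted p = 0.0054), so its direction depended on that choice.

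Without any 1 library, 10 of 15 amino-acid and 7 of 13 ER calls of CDD-3013 against IL1β held. Without IL1β replicate 1 the calls of ATF4 (adjusted p = 0.0739), SESN2 (0.123), PPP1R15A (0.118), SLC7A5 (0.0881), HSPA5 (0.0701), DNAJB9 (0.0562), HERPUD1 (0.08), EDEM1 (0.156) and SEL1L (0.384) were lost. Without IL1β replicate 2 those of SLC1A5 (adjusted p = 0.124) and PDIA4 (0.0633) were lost, with ATF4, SESN2, SLC7A5 and HSPA5 again; without CDD-3013 replicate 1 SESN2, SLC7A5, HSPA5 and SEL1L (adjusted p 0.0523 to 0.126), and without CDD-3013 replicate 2 ATF4, SESN2, SLC1A5, HSPA5, HERPUD1, EDEM1 and SEL1L (0.0503 to 0.154). With library totals the share of called genes that were higher was 39.2% against 52.3% with TMM, with 9 amino-acid genes higher and 3 lower and 7 ER genes higher and 5 lower. Over all 15740 genes library totals gave 2285 higher and 3548 lower.

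The compounds were matched in dose and time at 1 µM and 6 hours, which gives 1 pair, and their structures are not described in the labels. In the deposited counts CDD-3013 exceeded CDD-2728 in 8 of 21 amino-acid genes and was lower in 2 (median log2 fold change 0.28), and was higher in 4 of 17 ER genes and lower in 3 (median -0.05). Over all genes 17.9% were called, 9.85% higher and 8.01% lower. The medians of all genes were 0.20 in the 25% of genes highest in GC content and -0.18 in the 25% lowest, and the corrected fit called 2 amino-acid genes higher, PHGDH and SHMT2, 1 ER gene higher, XBP1, and 1 lower, DNAJC3. Over all genes the correction left 424 higher and 186 lower, against 1550 higher and 1261 lower without it, and the share higher was 69.5% against 55.1%.

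CHAC1 had 27.1 and 38.7 CPM with CDD-3013 and 23.6 and 19.5 CPM with CDD-2728, a log2 fold change of 0.61 ± 0.13 (adjusted p = 0.00455; corrected 0.30, 95% interval 0.07 to 0.54, adjusted p = 0.145). ATF4 had 339 and 354 CPM with CDD-3013 and 299.7 and 261 CPM with CDD-2728, 0.31 ± 0.08 (adjusted p = 0.00474; corrected 0.08, 95% interval -0.05 to 0.21, adjusted p = 0.444). SDF2L1 had 85.8 and 89.1 CPM with CDD-3013 and 71.0 and 60.8 CPM with CDD-2728, 0.41 ± 0.09 (adjusted p = 0.00258; corrected 0.07, 95% interval -0.08 to 0.23). These differences were called in the counts and not after the correction. PHGDH had 273 and 270.4 CPM with CDD-3013 and 237 and 210.4 CPM with CDD-2728, 0.28 ± 0.08 (adjusted p = 0.00777; corrected 0.19, adjusted p = 0.0456). XBP1 had 255 and 285 CPM with CDD-3013 and 245 and 219 CPM with CDD-2728, 0.22 ± 0.08 (adjusted p = 0.0355; corrected 0.20, adjusted p = 0.0251). DNAJC3 had 143 and 144 CPM with CDD-3013 and 186 and 188 CPM with CDD-2728, -0.38 ± 0.08 (adjusted p = 0.00108; corrected -0.19, adjusted p = 0.0456).

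**Figure D4:**
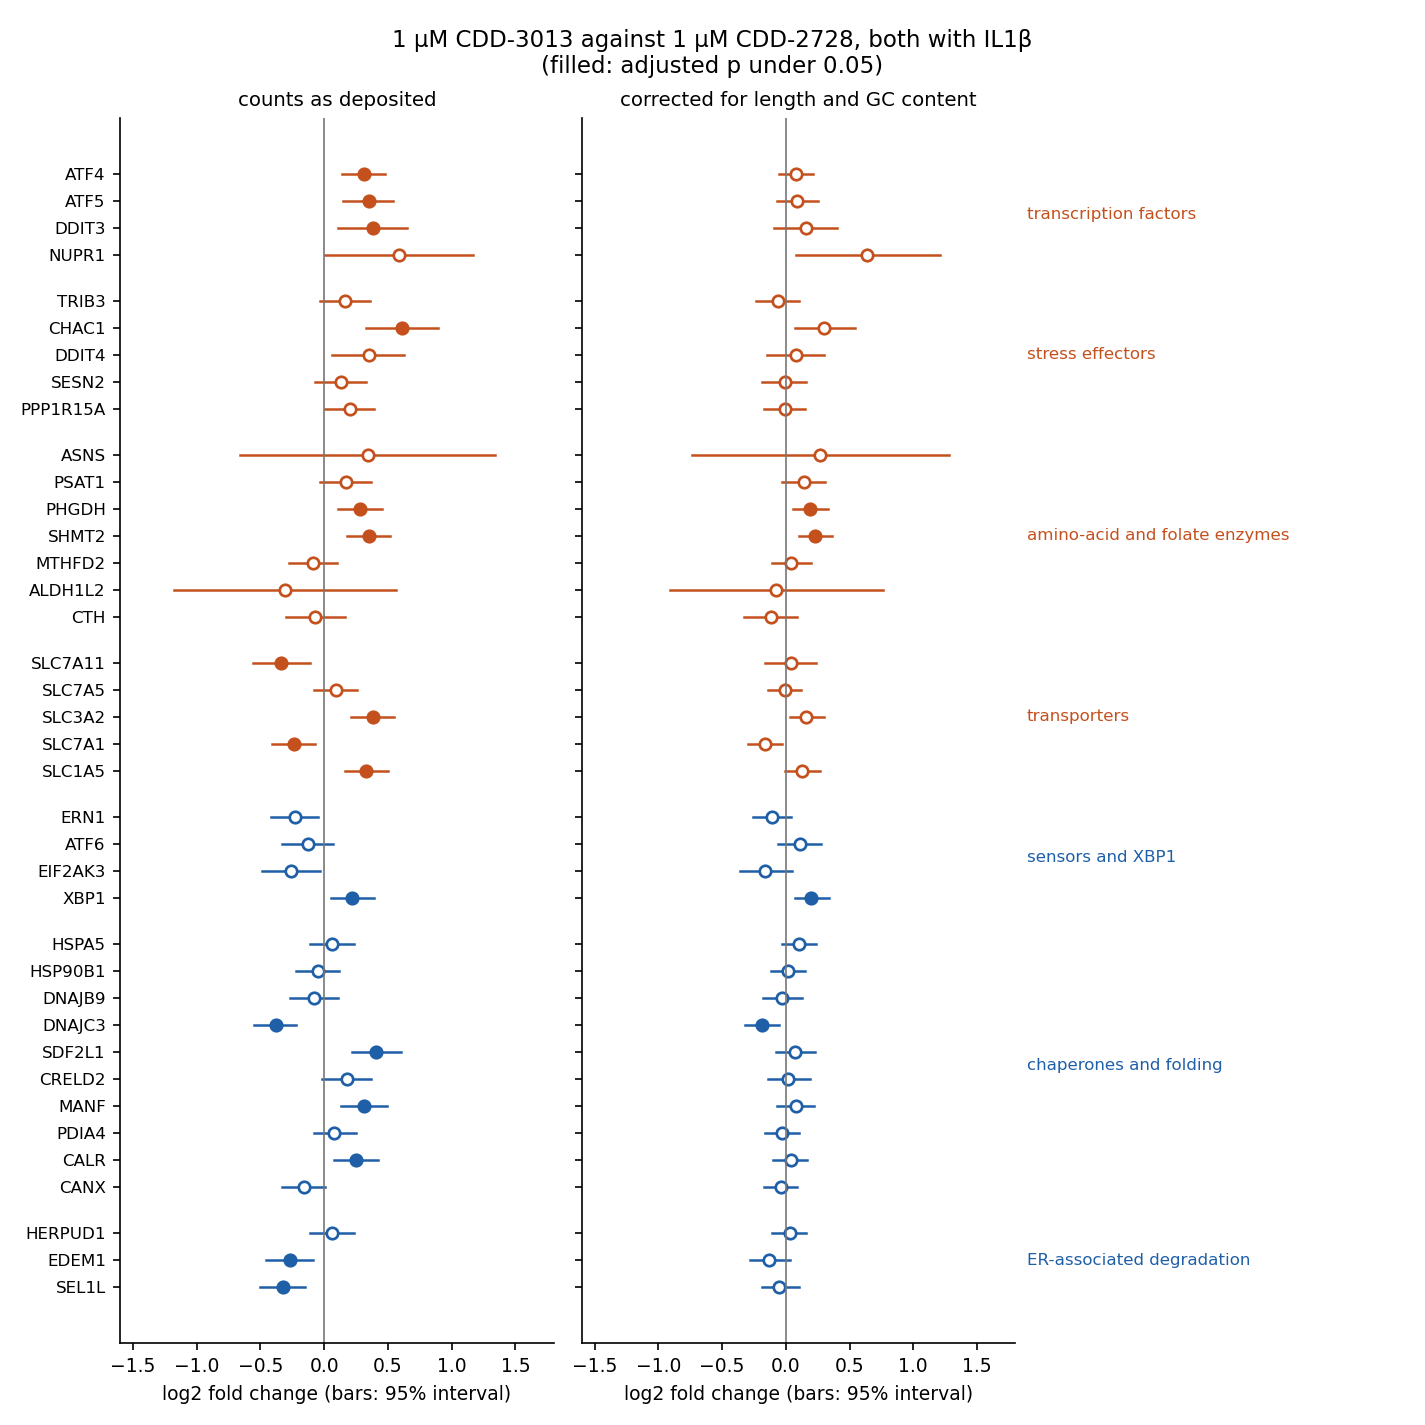
Log2 fold changes of 1 µM CDD-3013 against 1 µM CDD-2728, both with IL1β, for the 38 genes with 95% intervals, from the counts as deposited (left) and corrected for transcript length and GC content (right); filled circles passed the test. The left panel has 17 filled circles and the right panel 4.

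SLC7A11 had 24.4 and 28.1 CPM with CDD-3013 and 29.7 and 36.6 CPM with CDD-2728, and its sign turned with the correction (-0.34 in the counts, adjusted p = 0.0309; corrected 0.04, adjusted p = 0.886). For HSPA5 no difference was called, with 1992 and 1985 CPM with CDD-3013 and 1957 and 1858 CPM with CDD-2728 and a 95% interval of -0.11 to 0.23. Nor was one called for CTH, with 30.3 and 28.5 CPM with CDD-3013, 30.3 and 31.4 CPM with CDD-2728 and an interval of -0.30 to 0.16, or for DDIT4, with an interval of 0.06 to 0.63 (adjusted p = 0.0864). Without 1 µM CDD-2728 replicate 2 the calls of ATF4, DDIT3, CHAC1, PHGDH, SLC7A11, SLC7A1, XBP1, SDF2L1, MANF, CALR and EDEM1 were lost (adjusted p 0.066 to 0.406), and that of SEL1L was lost without CDD-3013 replicate 2 (adjusted p = 0.0787). Those of ATF4, DDIT3, CHAC1, SLC7A1, XBP1, MANF, CALR and EDEM1 were also lost without CDD-3013 replicate 2 (adjusted p 0.0547 to 0.405), those of SLC7A11, CALR and EDEM1 without CDD-3013 replicate 1 (0.0574 to 0.253), and that of DDIT3 without CDD-2728 replicate 1 (0.0567). In all, 4 of 10 amino-acid and 1 of 7 ER calls held without any 1 library. With library totals the share of called genes that were higher was 34.5% against 55.1% with TMM, with 7 amino-acid genes higher and 2 lower and 2 ER genes higher and 6 lower. Over all 15740 genes library totals gave 1034 higher and 1965 lower.

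Finally, other genes of these pathways were counted. The shares of all genes to read the counts against were 17.6% higher and 15.0% lower with IL1β against vehicle (32.6% called), and 15.6% higher and 15.9% lower with 10 µM CDD-2728 against IL1β (31.5% called). Of 22 further partners and targets of ATF4 that were tested, 8 rose and 4 fell with IL1β against vehicle, and 15 rose and 1 fell with 10 µM CDD-2728 against IL1β, so that 54.5% and 72.7% of the list were called. GDF15, a stress-induced secreted factor, averaged 10.5 CPM with IL1β against 2.76 CPM in vehicle (1.92 ± 0.19, adjusted p = 7.18e-09), and 35.2 CPM with 10 µM against 10.5 CPM with IL1β (1.75 ± 0.13, adjusted p = 6.6e-10). CEBPB, a dimer partner of ATF4, averaged 506 CPM with IL1β against 135 CPM in vehicle (1.90 ± 0.08, adjusted p = 2.35e-15), and 956 CPM with 10 µM against 506 CPM with IL1β (0.92 ± 0.08, adjusted p = 2.98e-09). STC2, a secreted glycoprotein, averaged 46.4 CPM with 10 µM against 22.8 CPM with IL1β (1.02 ± 0.11, adjusted p = 3.94e-08). All 3 genes were called higher at 10 µM, but the list was not uniform. ATF3 rose with IL1β against vehicle (1.39, adjusted p = 2.27e-09) and averaged 25.8 CPM both with IL1β and with 10 µM (adjusted p = 0.991). GADD45A averaged 55.1 CPM with 10 µM against 112 CPM with IL1β. FGF21 did not pass the filter on low counts.

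The tRNA synthetases, several of which are ATF4 targets, were mixed: 5 of 12 rose and 0 fell with IL1β, led by WARS1 (0.79, adjusted p = 1.14e-09), and 3 rose and 2 fell at 10 µM, with AARS1 higher (0.55, adjusted p = 8.97e-07) and TARS1 and MARS1 lower (-0.32 and -0.29). That is 41.7% called in each comparison, beside 32.6% and 31.5% of all genes. Of 12 eIF2α kinases, subunits and cofactors, 2 rose and 3 fell with IL1β and 2 rose and 2 fell at 10 µM, or 41.7% and 33.3% called. In these lists of 12 genes, shares in either direction were near or somewhat above those of all genes. By direction, all synthetases called with IL1β were higher, 41.7% of that list beside 17.6% of all genes. PPP1R15B, the constitutive eIF2α phosphatase subunit, rose with IL1β (0.62, adjusted p = 6.76e-07), and EIF2AK4, the amino-acid sensing kinase GCN2, fell (-0.43, adjusted p = 5.2e-05).

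Further ER genes were counted by role, again beside 32.6% of all genes called with IL1β and 31.5% at 10 µM. Of 16 other folding genes 7 rose and 0 fell with IL1β, among them HYOU1 (0.62) and DNAJB11 (0.64), and 2 rose and 1 fell at 10 µM; 43.8% were called with IL1β, above the share of all genes, and 18.8% at 10 µM, below it. Of 13 other degradation genes tested 9 rose and 0 fell with IL1β, among them SELENOS (0.75) and the ubiquitin ligase SYVN1 (0.69), and 3 rose and 1 fell at 10 µM, or 69.2% and 30.8% called. SYVN1 was among those that rose at 10 µM against IL1β (0.36, adjusted p = 0.00291), and DERL3 was not tested for low counts. Of 17 genes of the translocon and of traffic out of the ER, 13 rose and 1 fell with IL1β, among them the coat protein SEC24D (0.94, adjusted p = 7.72e-10), and 0 rose and 4 fell at 10 µM, with SEC24D now lower (-0.41, adjusted p = 0.000235); 82.4% and 23.5% of the list were called. A list of 9 other ER stress transducers and related genes included MBTPS2, RTCB and the apoptosis gene BCL2L11. Of these 9, 2 rose and 0 fell with IL1β, 22.2% and so below the share of all genes, and 4 rose and 1 fell at 10 µM, or 55.6%. At that dose CREB3L1, a relative of ATF6, averaged 39.6 CPM with 10 µM against 79.9 CPM with IL1β (-1.01 ± 0.09, adjusted p = 1.13e-09). With CDD-3013 against IL1β, 8 of 22 ATF4 partners and targets rose and 6 fell, and 3 of 17 translocon and traffic genes rose and 5 fell, in the deposited counts. These are 63.6% and 47.1% called, beside 36.4% of all genes, 19.0% higher and 17.3% lower. Fold changes in this comparison moved with GC content, and counts corrected for it are not given for these lists.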

How the data were processed

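Poly(A)-enriched RNA of 10 libraries was sequenced, and the groups were taken from the titles and treatment labels. The authors deposited 1 table of raw counts per gene ID, whole numbers that are not normalized; the submitters' processing notes name featureCounts, the aligner STAR, the trimmer fastp and the genome build hg38, with versions and parameters not given in the sources used here. Of 62750 IDs, 61918 matched a symbol table with their version and 754 without it, and 78 did not match. Exon lengths, GC content, coordinates and overlaps came from GENCODE 29 on GRCh38, and promoter windows from RefSeq on GRCh38.p14.

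Counts were filtered with filterByExpr (minimum count 10), scaled with TMM factors (0.9174 to 1.114) and fitted over all 10 libraries with the quasi-likelihood test of edgeR 4.0.16 in R 4.3.3 (robust, 5 residual degrees of freedom), with Benjamini-Hochberg adjustment over 15740 genes and a threshold of 0.05. SEs and 95% intervals are Wald values. CPM are counts scaled to 1000000 reads of the TMM-adjusted library. The method was tested on simulated data. Alternatives were relative log expression factors, library totals, no filter, a filter keeping genes that reach 5 CPM in 2 or more libraries, only the 4 libraries compared, DESeq2 1.42.0, a replicate block, a loess correction for transcript length and GC content (span 0.3, 15317 genes, 97.3% of those tested), both together, and leaving out each library in turn.

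The members and lists were chosen with earlier results of these data known. Values per library are given for members called in at least 1 comparison with an absolute log2 fold change of at least 0.5, and for XBP1, ATF4, DDIT3, HSPA5, ERN1, ATF6 and EIF2AK3. Other pathway genes come from the up to 3 of each list and comparison with the smallest adjusted p, of which the text gives a part, and JUN and CXCL8 are checks. No protein sequence was used.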

Additional observations from a re-analysis of the deposited data

How the results depend on the processing

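Of 156 recounts of the members called in each arm, over the 6 comparisons and all alternatives, 130 stayed within 1.5 times the count reported. The IL1β against vehicle and 10 µM CDD-2728 counts stayed within it except when 1 library was left out. Such a fit leaves 1 library in a group. Calls over all genes then also fell in IL1β against vehicle and, against IL1β, with 10 µM CDD-2728 and with CDD-3013. At 1 µM CDD-2728 against IL1β they fell too, except without 1 µM replicate 2, where they rose. The ranges below and the lost calls given above therefore do not show that either arm was less stable than other genes. Leaving out each library in turn gave, for amino-acid genes, 9 to 12 in IL1β against vehicle, 1 to 6 at 1 µM, 15 to 16 at 10 µM, 15 to 17 for 10 against 1 µM, 11 to 13 with CDD-3013 against IL1β and 4 to 10 for CDD-3013 against CDD-2728. For ER genes the ranges were 15 to 16, 0 to 5, 5 to 6, 4 to 5, 8 to 11 and 2 to 9 in the same order.

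At 1 µM CDD-2728 against IL1β the amino-acid count was 5 with no filter and 4 with the length and GC correction, with or without the replicate block, and the ER count was 1 with library totals, with only the 4 libraries compared and with the replicate block. For CDD-3013 against CDD-2728 the correction gave 2 amino-acid and 2 ER genes, and the correction with the replicate block 1 and 1; for CDD-3013 against IL1β the correction with the block gave 9 amino-acid genes. The cause of the other moves was not tested. Under the correction, with the block or without it, the direction turned for ATF4 (-0.07), ATF6 (0.28) and SEL1L (0.12) in CDD-3013 against IL1β and for SLC7A11 (0.04) in CDD-3013 against CDD-2728.

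Over 10 pairs of groups the difference between replicates 1 and 2 had a correlation of -0.11 to 0.05 across all genes tested. Replicate 1 held more counted reads than replicate 2 in every group. The labels do not say whether equal replicate numbers were paired, and these correlations cannot exclude it. Under the replicate block TRIB3 and SLC1A5 in IL1β against vehicle, SDF2L1 at 1 µM, ALDH1L2 and CALR at 10 µM, and ALDH1L2 for 10 against 1 µM lost the call. With 2 libraries a group and 180 to 567 reads in all, fold changes of ASNS, ALDH1L2 and NUPR1 have the widest intervals of the set.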
